A study of Mus musculus with 8 samples.

Results

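The comparison described here sets mouse embryonic stem cells (mESCs) that lack SUV39H1 and SUV39H2 and received UNC0642 (Suv39h DKO + UNC) against untreated wild-type mESCs of the same series of clones (Suv39h WT). The DKO cells are the Suv39h1/2 double knockout clone ADF157, and the WT cells are the clone ADF1-26. UNC0642, which inhibits G9a and GLP, was given at 2 µM for 3 days. Since each genotype is represented by its own clone, differences between clones and between genotypes cannot be told apart. Each of the 8 groups of the series held 1 library, so the comparison is 1 library against 1. The 6 other libraries are used as a frame: Suv39h WT + UNC, Suv39h DKO, and 4 libraries of a Setdb1 conditional knockout line (#33-6), namely Setdb1 WT, Setdb1 WT + UNC, Setdb1 KO (800 nM 4-hydroxytamoxifen for 5 days) and Setdb1 KO + UNC (4-hydroxytamoxifen for 2 days, then UNC0642 for 3 days). The members are all 100-kb autosomal bins (mm10) with a non-zero compartment score in both files, which came to 23986 bins of the 24005 scored in any library. The 19 bins missing from either file lay on chromosomes 4, 6, 7, 12 and 14.

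Hi-C counts how often pairs of loci touch in fixed nuclei, and its contact maps divide chromosomes into an A compartment, rich in active genes, and a B compartment, rich in silent chromatin and often near the nuclear lamina. The compartment score is the first eigenvector of a chromosome's contact map, positive in A and negative in B, and it has no physical unit. SUV39H1 and SUV39H2 methylate H3K9 mainly at satellite repeats around centromeres, and G9a and GLP place much of the H3K9me2 elsewhere. Cells without both activities therefore retain SETDB1 as the best-known H3K9 methyltransferase. The comparison asks how far compartments move under this loss. The score files hold no expression or sequence of the knocked-out genes, so the labels could not be checked against the targeted genes.

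The compartment map of Suv39h DKO + UNC was close to that of Suv39h WT. Across the 23986 bins, Pearson r between both libraries was 0.974, and the SD of the score difference (DKO + UNC minus WT, called the change below) was 0.00616, which is 22.6% of the SD of the WT scores. For repeats within each of these groups, the study gives a correlation of such scores that is only slightly higher. How much of the change exceeds the difference between repeats was not tested. A change of at least 0.01, the step used by the study for changed bins, was called a rise or a fall. By this step 1086 bins rose (4.53%) and 1263 fell (5.27%). The bins nearest to the step had changes of 0.0100002 and 0.00999898 in size. Which direction prevailed depended on how scores were centred: with the chromosome mean that the files imply added back to both libraries 1620 bins rose and 857 fell, and with it subtracted 694 rose and 1799 fell. Of all bins, 782 (3.26%, 95% Wilson interval 3.04% to 3.49%) went from B to A and 428 (1.78%, 1.62% to 1.96%) from A to B. These counts also depended on the centring: they were 1003 and 476 with the implied mean added, and 645 and 558 with it subtracted. Adjacent bins share contacts, which makes the intervals too narrow, and they hold no spread between cultures. Of the 1210 switching bins, 818 had a WT score within 0.005 of 0.

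No bin passed the test that the design allows. Limma was fitted over all 8 libraries with a common UNC0642 effect and 3 residual degrees of freedom, and the sum of the DKO and UNC0642 effects was below an adjusted p of 0.05 in 0 rising (0%) and 0 falling (0%) bins of 23972. The smallest adjusted p was 0.185, and 1207 bins rose and 1231 fell at an unadjusted p under 0.05. With a UNC0642 effect of its own in each line, limma called 14 falling bins and 0 rising ones, and with the 4 Suv39h libraries alone it called 13 and 0. All 13 were among the 14, and all 14 lay in one domain at the start of chromosome 1. The values of regions given below are therefore descriptions of 1 library against 1, except where these calls are named.

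Chromosome 1 stood apart from the other autosomes. Because a longer chromosome has smaller scores (root mean square of WT scores 0.0221 on chromosome 1 and 0.0405 on chromosome 19), chromosomes were compared by r and by the SD of the change divided by that root mean square, not by counts. On chromosome 1 r was 0.931 over 1924 bins and the scaled SD was 0.371. The next lowest r were 0.967 on chromosome 14, 0.969 on chromosome 3 and 0.969 on chromosome 9, and the scaled SD on the other autosomes did not exceed 0.256. The most alike by Pearson's r were chromosomes 8 (r = 0.987) and 19 (r = 0.985), while Spearman's rho was highest on chromosome 7 (0.984) and was 0.979 on chromosome 19. Chromosome 1 was the lowest under Spearman's rho and over 500-kb means too. With its smaller scores, it held 8.02% of the bins, 9.94% of the rising and 14.9% of the falling bins, and 13.8% of the B-to-A and 24.8% of the A-to-B bins (108 and 106).

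Chromosome 1 had the lowest r of the autosomes in the other comparisons within the Suv39h clones too, each of which shares a library with this one. It was 0.959 between DKO and WT, 0.967 between WT + UNC and WT, 0.964 between DKO + UNC and DKO, and 0.965 between DKO + UNC and WT + UNC, so the last 2 did not involve Suv39h WT. Between Setdb1 KO + UNC and Setdb1 WT, which share no library with this comparison, its r was 0.984, the third lowest, after 0.977 on chromosome 13 and 0.980 on chromosome 3. Between the untreated lines, Suv39h WT and Setdb1 WT, r was 0.945 on chromosome 1, 0.944 on chromosome 13 and 0.947 on chromosome 14. The autosomes on which the untreated lines differed most thus included chromosome 1.

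**Figure D1:**
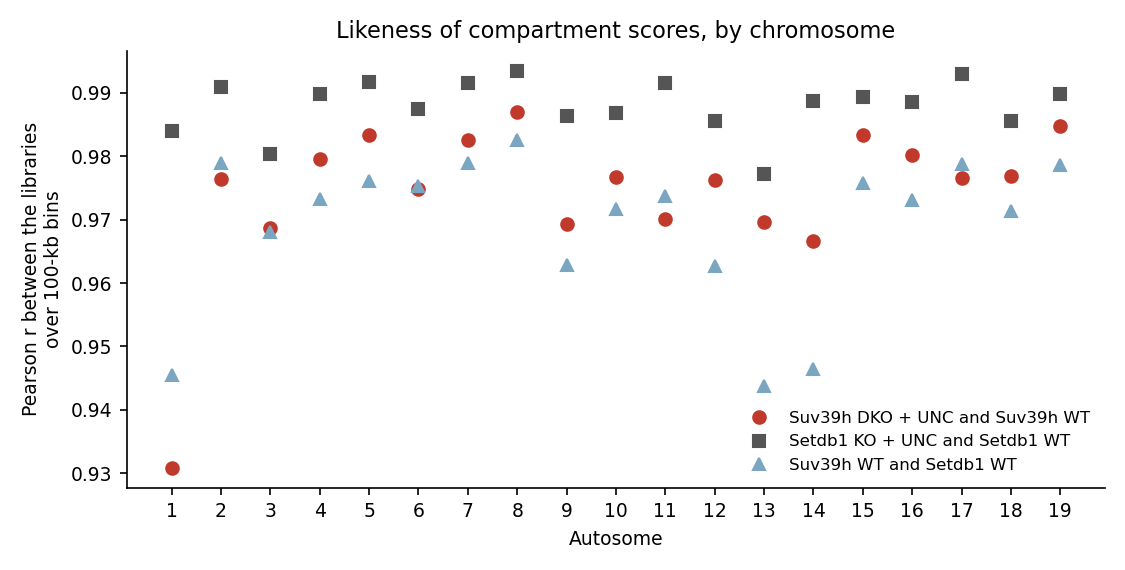
Pearson r between compartment scores of 2 libraries over 100-kb bins (y axis) for each autosome (x axis). Circles compare Suv39h DKO + UNC with Suv39h WT, squares Setdb1 KO + UNC with Setdb1 WT, and triangles the untreated WT libraries of both lines. The circle of chromosome 1 (0.931) lies below all other circles.

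The difference on chromosome 1 lay in its first 280 scored bins, next to the centromere, which mouse chromosomes carry at one end. The boundary at 31 Mb was chosen after the values were seen. From 3 to 31 Mb the score was lower in DKO + UNC in 261 of 280 bins (93.2%), with a mean change of -0.0125 ± 0.00995 (SD over bins). From 31 Mb to the end it was lower in 536 of 1644 bins (32.6%), with a mean change of 0.00213 ± 0.00553. Since each chromosome averages 0, the second mean is fixed by the first and adds nothing to it. The proximal part held 152 of the 188 falling bins of the chromosome and 87 of its 106 A-to-B bins. Over it the Suv39h libraries averaged 0.0103 (WT), 0.00420 (WT + UNC), 0.00404 (DKO) and -0.00219 (DKO + UNC). The Setdb1 line averaged 0.000779 without treatment, -0.00157 with UNC0642, 0.00117 after the knockout and 0.00142 after both. Suv39h WT was thus the highest and DKO + UNC the lowest of 8, and DKO + UNC was nearer to all 4 Setdb1-line libraries than Suv39h WT was. Suv39h WT had the highest score of all 8 libraries in 170 of the 280 bins, and DKO + UNC the lowest in 98.

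**Figure D2:**
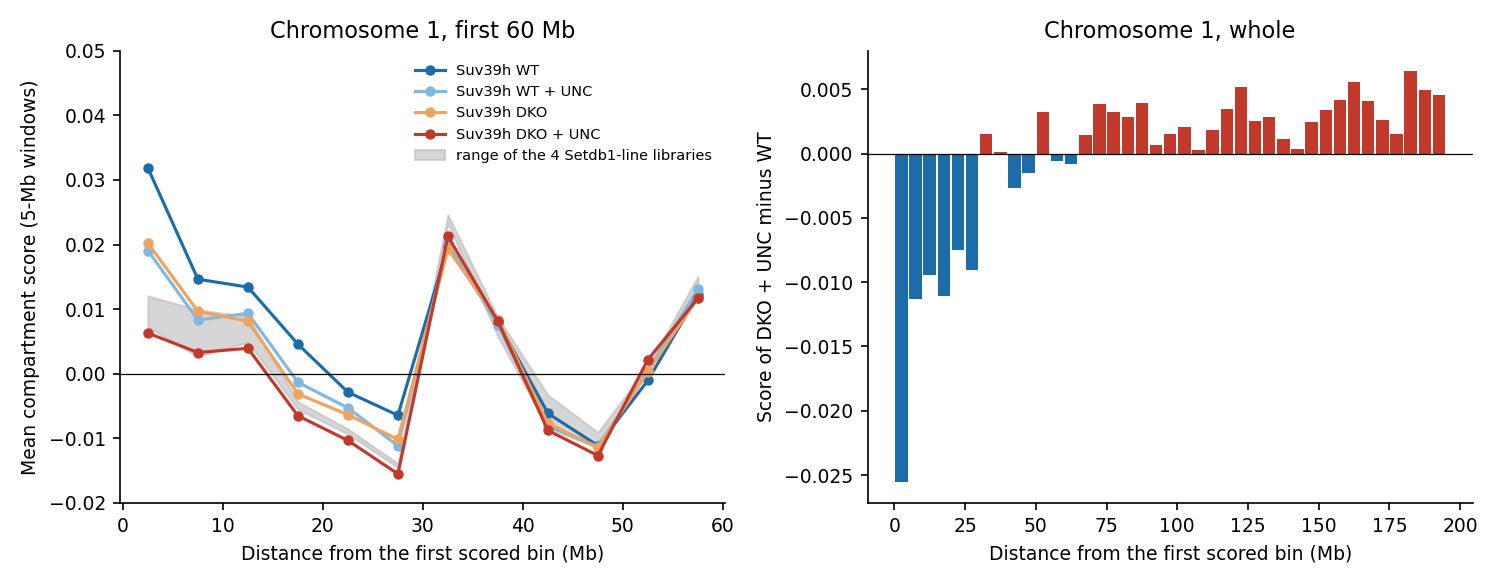
Left, mean compartment score in 5-Mb windows (y axis) against distance from the first scored bin of chromosome 1 in Mb (x axis), for the 4 Suv39h libraries (lines) and the range of the 4 Setdb1-line libraries (grey). Right, the score of DKO + UNC minus WT in the same windows over the whole chromosome, with falls in blue and rises in red. The first 6 windows fall, by 0.0256 in the first, and in the left panel WT lies above the grey range in all 6, with DKO + UNC below it in all but the second.

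The longest run of falling bins in the genome opened this region. It covered 39 adjacent bins (chr1:3000001-6900000) with 14 protein-coding genes, among them Xkr4 (a scramblase relative), Rp1 (a photoreceptor axoneme protein), Sox17 (an endoderm transcription factor) and Mrpl15 (a mitochondrial ribosomal protein). Its mean score was 0.0362 in WT, 0.0225 in WT + UNC, 0.0230 in DKO and 0.00658 in DKO + UNC, a change of -0.0296 ± 0.00862 (SD over bins). The score thus fell in steps across the Suv39h libraries, with similar values for the inhibitor alone and the knockout alone. The 4 Setdb1-line libraries held 0.00813 to 0.0115, so DKO + UNC lay closer to them than WT did. Set against Setdb1 WT in place of Suv39h WT, the run changed by only -0.00460. The 14 bins called by limma in the alternative fit all lay in this run (adjusted p from 0.0254 to 0.0492), as did the 13 of the fit with 4 libraries. The largest single fall of the genome (-0.0458) was at chr1:3700001-3800000. The bin of the Sox17 start had a score of 0.0473 in WT, 0.0286 in WT + UNC, 0.0317 in DKO and 0.0135 in DKO + UNC.

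Of the 10 falling runs with at least 5 bins, 6 were on proximal chromosome 1. Of the 4 runs with exactly 5 bins, the 2 with the larger mean change, both on chromosome 1, are named. The run at chr1:9300001-10200000 held 12 genes, among them Rrs1 (ribosome assembly) and Mybl1 (a regulator of male meiosis), and its score was 0.0267 in WT, 0.0168 in WT + UNC, 0.0190 in DKO and 0.00967 in DKO + UNC. At chr1:13200001-13700000, which holds Ncoa2 (a nuclear receptor coactivator) and Tram1 (protein translocation), the score was 0.0318 in WT, 0.0177 in WT + UNC, 0.0179 in DKO and 0.0159 in DKO + UNC. There the Setdb1 line held 0.0188 to 0.0235, so WT lay above all other libraries and the 3 other Suv39h libraries lay just below the lowest of that line. The gene-free run at chr1:26700001-27500000 went from -0.00510 in WT to -0.0222 in DKO + UNC, with -0.0117 in WT + UNC and -0.0120 in DKO. The run with Sntg1 (a syntrophin) at chr1:8200001-8700000 went from 0.00984 to -0.00562. The run at chr1:30300001-31000000 (Phf3 and Ptp4a1, a phosphatase) went from 0.00404 to -0.00828, within the 4 Setdb1-line values of -0.00954 to -0.00655, and against Setdb1 WT its change turned to 0.00115.

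Runs of at least 2 adjacent A-to-B bins numbered 54, of which 20 were on chromosome 1, and all 5 runs with at least 4 bins lay in its proximal part. The longest had 8 bins (chr1:17600001-18400000) with Pi15, Crispld1 and Crisp4, which encode secreted CAP-family proteins, and the defensin gene Defb18. Its score was 0.00827 in WT, 0.00388 in WT + UNC, -0.000341 in DKO and -0.00595 in DKO + UNC. The run at Pkhd1, the gene of a ciliary protein (chr1:20200001-20600000, 4 bins), went from 0.00271 in WT to -0.00941 in DKO + UNC. The run at Kcnb2, a potassium channel gene (chr1:15200001-15600000, 4 bins), went from 0.00596 to -0.00570. In Setdb1 WT the last 2 runs were already in B, at -0.00462 and -0.00429.

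Falls outside chromosome 1 included a domain on chromosome 9 with DKO + UNC the lowest of the 8 libraries and DKO the next lowest. The run at chr9:71800001-72800000 (10 bins) held Tcf12, a basic helix-loop-helix factor, Zfp280d, a zinc finger gene, and the testis genes Mns1 and Tex9. Its score was 0.0371 in WT, 0.0320 in WT + UNC, 0.0276 in DKO and 0.01997 in DKO + UNC, a change of -0.0172 ± 0.00490 (SD over bins). The Setdb1 line held 0.0308 to 0.0382, and against Setdb1 WT the change was again -0.0172. The region stayed in A in every library. On chromosome 16, a run of 7 bins (chr16:19100001-19800000) with the olfactory receptor genes Olfr164 to Olfr167 went from 8.3e-05 in WT to -0.0129 in DKO + UNC, with -0.00344 in WT + UNC and -0.00282 in DKO. Setdb1 WT + UNC also reached -0.0108 there, while the 3 other Setdb1-line libraries held -0.00386 to 0.000248.

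The longest rising run was on chromosome 17 (chr17:67300001-68200000, 9 bins). It held Ptprm, a receptor phosphatase of cell contacts, Lrrc30, Lama1, a laminin chain of early basement membranes, and Arhgap28. Its score was -0.0175 in WT, -0.0147 in WT + UNC, -0.0106 in DKO and -0.00339 in DKO + UNC, a change of 0.0141 ± 0.00310 (SD over bins). The Setdb1 line held -0.0221 to -0.0180, so DKO + UNC was the least B-like of the 8 libraries, though still in B. The rise extended beyond the run: over chr17:63000001-68000000 and chr17:68000001-73000000, 44 of 50 bins were higher in each 5-Mb window.

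On chromosome 13 a second rising domain had DKO + UNC at the top of the 8 libraries. The run at Irx1, a homeobox gene (chr13:71700001-72300000, 6 bins), went from -0.0105 in WT to 0.00218 in DKO + UNC, with -0.00386 in WT + UNC and -0.00323 in DKO. The run at Tent4a, a poly(A) polymerase gene (chr13:69100001-69500000, 4 bins), went from -0.00735 to 0.00836, with -0.00173 in WT + UNC and 0.00319 in DKO. The Setdb1 line was widely spread at both, from -0.0272 to -0.00557 at Irx1 and from -0.0195 to -0.00530 at Tent4a, with Setdb1 WT + UNC the highest of its line. One of the longest B-to-A runs (chr13:72200001-72600000, 4 bins, no protein-coding gene) shared 1 bin with the Irx1 run and went from -0.00613 to 0.00409. On chromosome 19, 4 bins at Atrnl1 and Gfra1, the co-receptor of GDNF (chr19:58100001-58500000), went from -0.00434 in WT to 0.0113 in DKO + UNC, with -0.00140 in WT + UNC and 0.00662 in DKO.

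At 3 other rising runs WT alone was at the edge. At Zmiz1, Ppif and Zcchc24 (chr14:25300001-25800000, 5 bins) the score was 0.0266 in WT, 0.0342 in WT + UNC, 0.0346 in DKO and 0.0413 in DKO + UNC. All 4 Setdb1-line libraries held 0.0399 to 0.0458 there, and against Setdb1 WT the change turned to -0.00192. The gene-free run at chr14:24800001-25200000 went from 0.00593 to 0.0224 and the run at Tcf4, a neural transcription factor gene (chr18:69000001-69500000), from -0.00508 to 0.00662. The Setdb1-line libraries all lay above Suv39h WT at both, at 0.0103 to 0.0243 and at 0.00137 to 0.0105. At chr1:183500001-184000000 (5 bins, no protein-coding gene) WT was the lowest of 8 at -0.00370 and DKO + UNC the highest at 0.00910. Both were also at the edge in the other B-to-A runs named, 2 of the 5 with 4 bins. The run at Tgfbr2, a TGF-beta receptor gene (chr9:116100001-116500000), went from -0.00831 in WT and -0.00479 in WT + UNC to 0.00189 in DKO and 0.00378 in DKO + UNC, with the Setdb1 line at -0.000373 to 0.00122. The run at Slc24a3, Rin2, Naa20 and Crnkl1 (chr2:145600001-146000000) went from -0.00579 to 0.00381, with the Setdb1 line at -0.000847 to 0.00107.

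**Figure D3:**
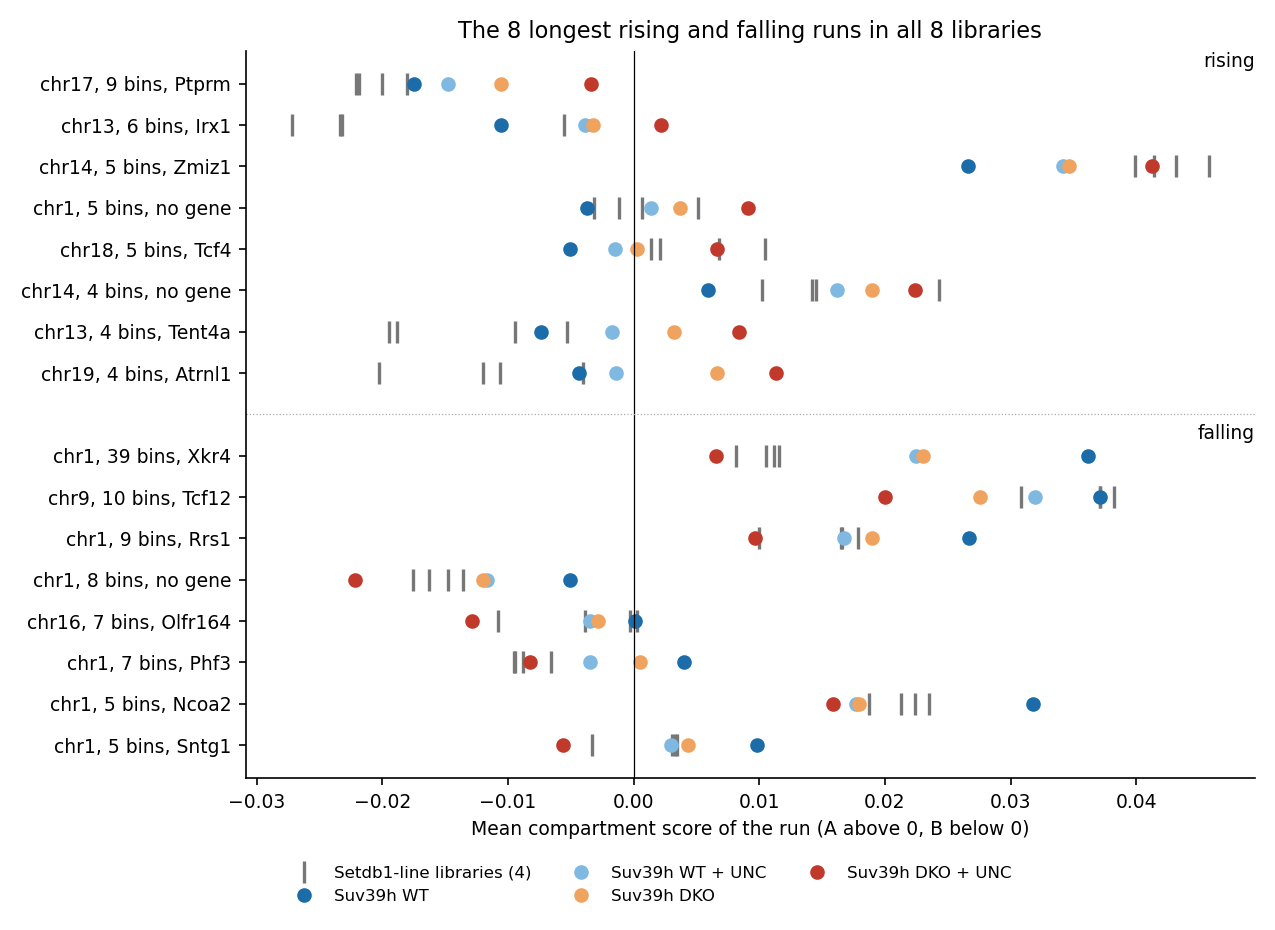
Mean compartment score (x axis, no unit) of the 8 longest rising and 8 longest falling runs (rows, named by chromosome, number of 100-kb bins and first gene) in all 8 libraries. Coloured points are the Suv39h libraries and grey ticks the 4 Setdb1-line libraries. In the runs on chromosomes 17 and 9 with 9 and 10 bins the red point (DKO + UNC) lies outside all other marks, and in the chromosome 14 runs the dark blue point (WT) does.

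Counted over all runs, which library lay at the edge was mixed. Of the 123 rising runs, DKO + UNC alone lay beyond all other libraries in 53, WT alone (on the opposite side) in 32, both in 31 and neither in 7. Of the 158 falling runs the numbers were 55, 30, 69 and 4. Runs were chosen for the difference between these libraries, so their lying at the edge is not itself a result. With Suv39h WT as the control, 21 of the 22 named runs reached a mean change of 0.01 in their direction. With Setdb1 WT in its place 16 of the 22 did not, among them all 9 named runs on proximal chromosome 1. The 6 that did were the runs at Ptprm, Irx1, Tent4a, Atrnl1 and Tcf12 and the B-to-A run beside Irx1. Rising runs were found on all 19 autosomes (14 on chromosome 1 and 16 on chromosome 14) and falling runs likewise (28 on chromosome 1 and 18 on chromosome 9). Most were short, with a median of 2 bins, and 18 rising and 16 falling runs had at least 4.

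Neighbouring bins moved together over megabases. The correlation of the change between bins 100 kb apart was 0.366, and it was 0.192 at 1 Mb and 0.0926 at 5 Mb (descriptions over up to 23972 bins that share both libraries). Differences between 5-Mb windows held 21.9% of the variance of the change, and 16.3% without chromosome 1. The same share was 9.25% for DKO against WT, 6.78% for WT + UNC against WT, 10.8% for DKO + UNC against DKO, 14.01% for DKO + UNC against WT + UNC, and 21.7% (19.7% without chromosome 1) between the untreated lines, all of which share a library with this comparison. It was 6.74% for Setdb1 KO + UNC against Setdb1 WT, which share none. The windows of 5 Mb that changed most outside chromosome 1 were chr13:68000001-73000000, where 46 of 50 bins were higher (mean change 0.00971), and chr17:18000001-23000000, where 46 of 50 were lower (-0.00917). The latter holds clusters of vomeronasal receptor and zinc finger genes, and its score was -0.0179 in WT, -0.0191 in WT + UNC, -0.0209 in DKO and -0.0270 in DKO + UNC, the lowest of 8 (Setdb1 line -0.0237 to -0.0168). Over chr16:93000001-98000000 all 50 bins were higher, with a mean of 0.0180 in WT and 0.0249 in DKO + UNC.

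The distal ends of chromosomes were higher in DKO + UNC relative to the rest of each chromosome. Over the last 10 Mb of each autosome the mean change was 0.00225 ± 0.00172 (SD over 19 autosomes), and 18 of 19 autosomes were above 0, with chromosome 4 the exception at -0.00139. The mean score there was 0.00885 in WT, 0.00926 in WT + UNC, 0.00937 in DKO and 0.0111 in DKO + UNC, while the Setdb1 line held 0.00962 to 0.0108. The value depended on the centring: it was 0.00349 with the implied mean added to both libraries and 0.00102, above 0 on 12 autosomes, with it subtracted. Relative to the rest of the same chromosome, which centring cannot alter, the end was higher on 18 of 19. At the centromere end the first 5 Mb had a mean change of -0.00111 ± 0.00610, which rested on chromosome 1 (0.000244 without it). At 10 to 15 Mb from the first scored bin the mean was -0.00180 ± 0.00243, with 2 of 19 autosomes above 0, and -0.00138 without chromosome 1. This value depended on the centring as well: it was -0.000569, above 0 on 8 autosomes, with the implied mean added, and -0.00304, above 0 on 1, with it subtracted. In Setdb1 KO + UNC minus Setdb1 WT the same windows gave 0.000622 ± 0.000841 at 10 to 15 Mb from the first bin and -0.000494 ± 0.000894 at 5 to 10 Mb from the last, against 0.00290 ± 0.00217 in the latter window here.

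**Figure D4:**
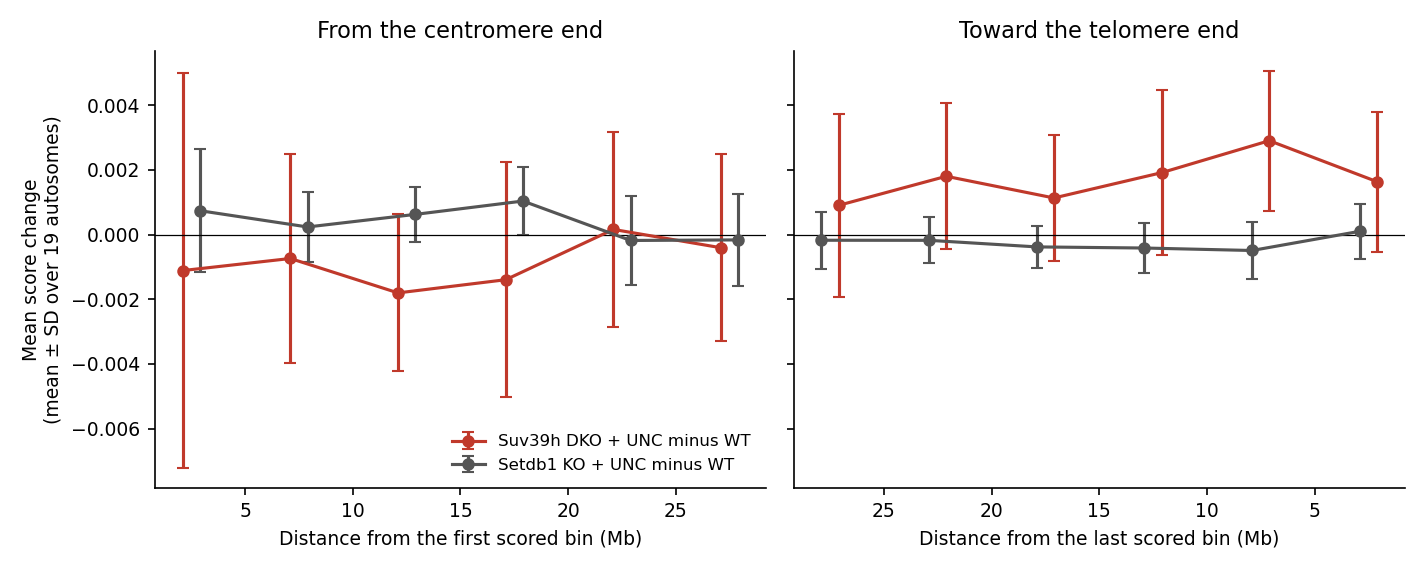
Mean score change (y axis, mean ± SD over 19 autosomes) in 5-Mb windows by distance in Mb from the first (left) and the last (right) scored bin, for Suv39h DKO + UNC minus Suv39h WT (red) and Setdb1 KO + UNC minus Setdb1 WT (grey). The red points lie above 0 in all 6 distal windows, with an SD that crosses 0 in all but the window at 5 to 10 Mb.

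By compartment class the changes were small. Bins were placed in 5 equal classes by the score of Setdb1 WT, a library outside the comparison. The mean change was -0.000429 ± 0.000692 (SD over 19 autosomes) in the most B-like class, -5.66e-05 in class 2, 0.00108 ± 0.000717 in the middle class, 0.000263 in class 4 and -0.000939 ± 0.000940 in the most A-like class. A shift of the centring moves all classes alike, so their order, with the middle class highest, does not depend on it, but the sign of each class does. As deposited, the middle class was above 0 on all 19 autosomes and the most A-like class on 1. With the implied mean added the middle class had 0.00225, above 0 on 19 autosomes, and with it subtracted -0.000103, above 0 on 10. Rising bins made up 7.43% of the middle class and 2.40% and 2.31% of the outer classes, and falling bins were most frequent in class 4 (6.95%).

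Rising and falling bins differed in sequence composition, which the choice of bins did not use. From the GRCm38 reference, GC content had a median of 43.3% in rising bins, 40.0% in falling bins and 41.4% in the bins that changed by less. The share of soft-masked repeats was 26.5%, 35.5% and 31.7%, and CpG dinucleotides numbered 8.995, 6.85 and 7.76 per kb. Without chromosome 1 the falling bins had a GC content of 40.3% and a repeat share of 34.3%. The difference held within each of the 5 classes: in the most B-like class GC was 40.8% in rising and 37.6% in falling bins, in the middle class 42.98% and 39.5%, and in the most A-like class 46.8% and 43.3%. Over 23932 bins, which share both libraries, r of the change with GC content was 0.178 and with the repeat share -0.151. The other comparisons within the Suv39h clones, which share libraries with this one, had the same signs, from 0.0868 to 0.123 with GC content and from -0.125 to -0.0505 with the repeat share. In Setdb1 KO + UNC minus Setdb1 WT the values were -0.0942 and 0.194, of opposite sign, and in Suv39h WT minus Setdb1 WT, the untreated lines, they were -0.0356 and -0.118. Whether GC content affected the scores through the library preparation was not tested. A protein-coding gene start was absent from 62.5% of rising, 55.7% of falling and 58.02% of the other bins.

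Gene groups were read through the bin that holds each gene's start, and a list is described by its bins, since clustered genes share them. Many genes are given by WT and DKO + UNC alone. Which of these libraries lay away from the Setdb1 line varied by gene. The frame is the whole genome, with a median change of 0.000119, 4.53% of bins rising and 5.27% falling. The implied chromosome means differ between both libraries by 0.000334 to 0.00237 by autosome, so the sign of a list median of that size depends on the centring, and medians are read against that of all bins. The 3 largest families had few rises: vomeronasal receptors, the pheromone receptors, had 19 falling and 5 rising of 187 bins (median -0.00133), olfactory receptors 19 and 3 of 333 (median -0.000273), and Zfp genes, which include many KRAB repressors of transposons, 23 and 5 of 279 (median 3.23e-05). Falling bins were thus 10.2%, 5.71% and 8.24% of these lists. Vmn2r97 on chromosome 17 went from -0.0131 in WT, through -0.0231 in WT + UNC and -0.0242 in DKO, to -0.0346 in DKO + UNC, and Vmn2r98 in the next bin from -0.0192 to -0.0360. The other members with the largest changes of the vomeronasal list rose, both on chromosome 7: Vmn1r118 from -0.0599 to -0.0418 and Vmn1r157 from -0.0508 to -0.0345. The olfactory members with the largest changes all fell: Olfr835 from -0.00192 to -0.0247, Olfr164 from -0.00797 to -0.0294, and Olfr930 and Olfr933, in one bin, from -0.0248 to -0.0430. Among Zfp genes, Zfp944 and Zfp758, in one bin of chromosome 17, went from -0.00638 to -0.0242, with -0.00589 in WT + UNC and -0.0152 in DKO. Zfp280d, in the chromosome 9 run, went from 0.0375 to 0.0149, and Zfp367 on chromosome 13 from 0.0522 to 0.0328.

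Lists in which some bins rose and none fell by the step were small. Replication-dependent histone genes had 5 rising and 0 falling of 14 bins (median 0.00269). The bin of Hist1h4h, Hist1h2af, Hist1h3g and Hist1h2bh on chromosome 13 had 0.0169 in WT, 0.0288 in WT + UNC, 0.0254 in DKO and 0.0354 in DKO + UNC, while the Setdb1 line held 0.02099 to 0.0490. Nuclear lamina genes had 2 rising and 0 falling of 12 bins, with a median of 0.00449, and 8 of 12 were higher. The bin of Syne1, a nesprin gene, went from A (0.00101) to B (-0.00143), a change below the step. Lmna, the gene of lamins A and C, went from 0.0516 in WT to 0.0632 in DKO + UNC, and Lemd2, an inner membrane protein gene, from 0.0358 to 0.0465. The changes of Sun2 (0.00909) and Lbr (0.00770), genes of other inner membrane proteins, were below the step. Keratins had 4 rising and 0 falling of 33 bins, with 1 bin moving into A and 2 into B. The bin of Krt14, Krt16, Krt17 and Krt42 went from 0.0137 to 0.0323. Imprinted genes had 2 rising and 0 falling of 25 bins: Gnas went from 0.0131 to 0.0241 and Impact from 0.0394 to 0.0502, while Dlk1 (0.00988) and Slc38a4 (0.00916) changed by less than the step. The Setdb1 line held 0.0184 to 0.0224 at Gnas and 0.0447 to 0.0495 at Impact. In the Hox clusters, the body-axis regulators, 8 of 9 bins were higher (median 0.00371) and none passed 0.01, the largest change being 0.00853 in the bin of Hoxb6 to Hoxb9.

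The lists tied to stem cell identity and to H3K9 methylation held too few bins for their shares to be read closely. Pluripotency genes had 1 rising and 1 falling of 23 bins: Klf4 went from 0.00709 in WT, through 0.0140 in WT + UNC and 0.0180 in DKO, to 0.0208 in DKO + UNC, and Lin28a from 0.0421 to 0.0310, with smaller changes at Klf5 (0.00805) and Dppa5a (-0.00764). The Setdb1 line held 0.00419 to 0.0168 at Klf4 and 0.0316 to 0.0329 at Lin28a. Germline genes had 0 and 1 of 23: Smc1b, a meiotic cohesin gene, went from 0.0342 to 0.0228, and Sycp1 (-0.00915), Brdt (-0.00912) and Mael (0.00649) changed by less than the step. Lineage regulators had 1 and 1 of 25: Neurog2 went from 0.0136 to 0.0241 and Sox17 fell as given above, while Eomes (0.00948) and Foxa2 (0.00944) did not reach the step.

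Genes of the 2-cell stage had 1 rising and 3 falling of 25 bins (12% falling): Pramef6 went from -0.0164 to -0.00626, Tdpoz5 from -0.0342 to -0.0503, Pramel4 from -0.0169 to -0.0272 and Zscan4b from -0.0178 to -0.0282. Ribosomal protein genes had 2 and 2 of 76: Rpl15 went from -7.16e-05 to 0.0156, Rps24 from 0.0197 to 0.0351, Rpl6 from 0.0414 to 0.0302 and Rps27l from 0.0444 to 0.0336. The Setdb1 line held 0.0110 to 0.0211 at Rpl15, 0.0294 to 0.0350 at Rps24, 0.0337 to 0.0370 at Rpl6 and 0.0344 to 0.0453 at Rps27l. Clustered protocadherins had 0 rising and 1 falling of 10 bins, that of Pcdhb3 to Pcdhb6, which went from -0.000790 to -0.0108. Defensins had 1 and 2 of 22: Defa22 and Defa30, in one bin, went from -0.0649 to -0.0532, and Defb18 and Defb41, in another, from 0.00532 to -0.00813. Genes of H3K9 methylation had 1 and 2 of 23 (8.70% falling). The bins of Suv39h2 (0.00175), Ehmt1 (-0.00134), Ehmt2 (-0.000178) and Setdb1 (0.00527) changed by less than the step. Suv39h1 is X-linked and so has no bin among the autosomes. Setdb2 fell from 0.0262 to 0.0135 and Kdm3a, an H3K9 demethylase gene, from 0.0413 to 0.0301, Prdm2 rose from 0.00712 to 0.0192, and Mphosph8 changed by -0.00824.

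**Figure D5:**
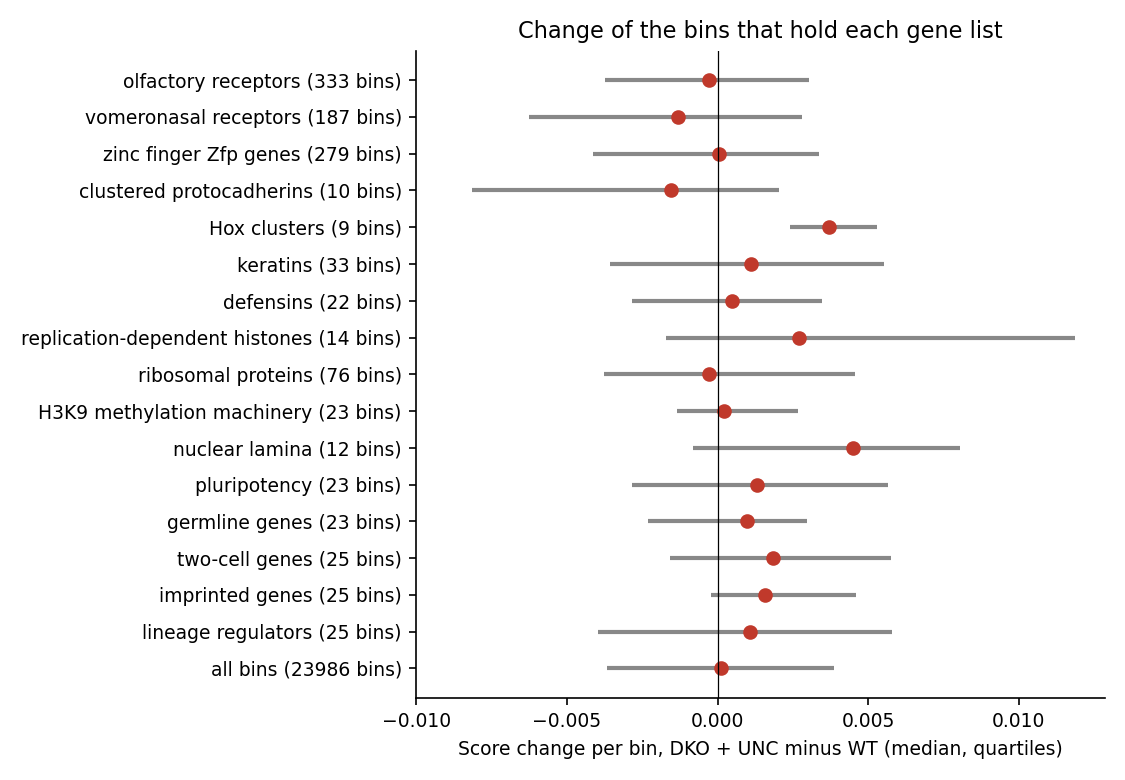
Change of the score per bin, DKO + UNC minus WT (x axis, no unit), for the bins that hold the start of each gene of a list (rows, with the number of bins). Points are medians and lines the quartiles over bins. Nuclear lamina genes (0.00449) and Hox clusters (0.00371) have the highest medians, while clustered protocadherins (-0.00155) and vomeronasal receptors (-0.00133) have the lowest.

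Changes in the Setdb1 line were set beside these bin by bin. Over 23972 bins the change correlated with that of Setdb1 KO + UNC minus Setdb1 WT, which shares no library with it, at r = -0.0319 (Spearman's rho -0.0284), and from -0.0830 to 0.0140 by autosome. Of the rising bins, 27 rose in both, which is 2.49% of the 1086 here and 7.69% of the 351 there, against 1.46% of all bins rising there and 4.53% here. Of the falling bins 28 fell in both, 2.22% of the 1263 here and 9.89% of the 283 there, against 1.18% of all bins falling there and 5.27% here. The shares in both directions were thus above the background while r was slightly below 0, and no test was made of either.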

How the data were processed

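Hi-C libraries (DpnII) of mESCs were deposited by the authors as compartment scores in 100-kb bins of mm10, 1 file per group. The authors used the 4DN Hi-C pipeline and Juicer Tools, and each score is the first eigenvector of a KR-normalized intrachromosomal map. The deposited score files hold no counts. The study lists a read number for each of the repeats it made, smaller for DKO + UNC than for WT in each, but not which repeat or pool a file holds, so the depth behind a score is unknown and its part was not tested. Scores average 0 on each chromosome, and their sums of squares imply a subtracted mean, larger in DKO + UNC than in WT on all 19 autosomes, so a general rise or fall cannot be seen. Here runs were at least 2 adjacent bins changing by 0.01 with one sign. The 8 longest each way (ties by mean change), the 3 longest switching runs each way, up to 4 genes a run and the 4 genes of each list with the largest bin changes were named. Genes were protein-coding in GENCODE vM21 (20807). Composition came from GRCm38.p6, which shares coordinates with mm10. Alternatives covered thresholds, centring, scaling and the model, and 2 were chosen after seeing the data. Tests used limma 3.58.1 in R 4.3.3 and were tested on simulated data; 23972 bins were scored in all 8 libraries. P-values measure only the spread between these libraries. Members, lists and windows were chosen with earlier results of these data known.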

Additional observations from a re-analysis of the deposited data

How the results depend on the processing

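Counts depended on the threshold and centring. At a change of 0.02, 34 bins rose and 97 fell, in 2 rising and 11 falling runs. With the implied chromosome mean added to both libraries, rising runs numbered 229 and falling runs 94, and with it subtracted 71 and 258, with 694 rising bins. Mixed signs of that mean were not run. Over means of 5 bins, 38 of 4803 rose and 61 fell, with 125 moving into A and 53 into B. With WT scores of at least 0.005 either way, 247 moved into A and 145 into B. Quantile normalization equalized the switches by construction (B to A 50% of them), against 64.6% as deposited and 53.6% with the implied mean subtracted. Limma called 14 falling bins with a UNC0642 effect per line and 13 with the 4 Suv39h libraries, and 0 in the 4 other alternatives. Without chromosome 1, an alternative chosen after seeing the data, 978 bins rose, 1075 fell, 674 moved into A and 322 into B.

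The mean change of the most B-like class turned to 0.000654 with classes set by Suv39h WT and to 0.00075 with the implied mean added, which also turned the most A-like class to 0.00024. With classes set by Suv39h WT the most A-like class had -0.00224, and with the implied mean subtracted the most B-like class had -0.00161 and the most A-like class -0.00212. None of the 22 named runs changed sign in the 4 planned settings, with means between 0.793 and 1.17 times those as deposited. With Setdb1 WT as the control, chosen after seeing the data, the runs at Zmiz1 (-0.00192) and Phf3 (0.00115) turned, 13 kept their sign but shrank by over 1.5 times (the run at Xkr4 to -0.00460, that at Rrs1 to -0.00689, that at Tgfbr2 to 0.00329), 5 stayed within 1.5 times and 2 at Irx1 grew beyond it. No paired analysis was possible because each group held 1 library. No sample was set apart by a test within groups for the same reason, and the files give no depth from which a detection limit could be drawn.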
